A study of Arabidopsis thaliana with 48 samples.

Results

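*HSP101* (AT1G74310) and *HSA32* (AT4G21320) were taken by locus identifier from the deposited gene counts, as 2 of 33323 genes counted and 2 of 26712 protein-coding genes. The pair was followed through 48 RNA-seq libraries of *Arabidopsis thaliana* seedlings in 16 groups of 3 biological replicates, each group being 1 genotype at 1 time. The genotypes were the *hsfa2 hsfa3* double mutant, the single mutants *hsfa2* and *hsfa3* (the hsfa3-1 allele) and the wild type Col, and all of them share the Col-0 background. Each mutant allele comes from 1 insertion line. Heat-treated groups received an acclimation treatment (ACC) as 4 d-old seedlings, made of a first HS of 1 h at 37 °C and a second HS of 45 min at 44 °C with 90 min at 23 °C in between, and were harvested after recovery of 4, 28 or 52 h. The no HS group of each genotype was untreated and serves all 3 recovery times. Its time of harvest is not given in the sources used here. Treatment therefore cannot be told apart from seedling age at recovery times that differ from it.

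Between 27561060 and 33861060 read pairs fell on protein-coding genes in a library, with a median of 33377428. Neither member was near the detection limit. *HSP101* had 469 to 684 read pairs per library without HS, 85360 to 167872 at 4 h, 546 to 2235 at 28 h and 347 to 767 at 52 h. *HSA32* had 95 to 153 read pairs without HS, 5047 to 10750 at 4 h, 155 to 1483 at 28 h and 104 to 776 at 52 h. The mutated genes followed the labels at 4 h: *HSFA2* averaged 62.2 CPM (counts scaled to a common library total) in *hsfa2 hsfa3* and 62.5 CPM in *hsfa2*, against 1389 CPM in Col, and *HSFA3* averaged 215.4 CPM in *hsfa2 hsfa3* and 162.7 CPM in *hsfa3*, against 1008 CPM in Col. Summed CPM of 5 green tissue markers ranged from 16299 to 42019 over all libraries, that of 7 root markers from 31.5 to 251.3 and that of the seed and embryo markers from 1.60 to 55.95.

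Heat shock factors of class A are transcription factors that bind heat shock elements, inverted repeats of GAA, upstream of heat-induced genes. HSFA2 and HSFA3 are members of this class whose own genes are induced by heat. HS memory is the state in which a seedling that has met a mild HS survives a later, severe HS better, and genes that stay induced through the days between them are called memory genes. HSP101 is the cytosolic chaperone of the Hsp100/ClpB type, an ATPase that pulls proteins out of aggregates together with the Hsp70 system. HSA32 is a heat-stress-associated protein that prolongs acquired thermotolerance. In *Arabidopsis* both proteins are known to sustain each other's abundance during recovery, a relation between proteins that counts of mRNA do not measure. A reporter of *HSA32* was the basis of the genetic screen that led to *HSFA3*, so *HSA32* is not an independently chosen readout of the *hsfa3* mutant.

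The stretches upstream of both genes are shown because heat shock factors act there. The search was for an 8-base core of the heat shock element, GAANNTTC or TTCNNGAA, each of which reads the same on both strands, with overlapping matches counted, and matches are in capitals. Sequences are from RefSeq for the TAIR10.1 assembly, 5′ to 3′ on the strand of the gene, with coordinates of that assembly. The stretch before the start of *HSA32* (chr4:11340112-11340361, plus strand) holds 1 core, and the stretch before *HSP101* (chr1:27940370-27940593, minus strand), which is the whole gap to its divergent neighbour AT1G74320, holds none.
HSA32 upstream: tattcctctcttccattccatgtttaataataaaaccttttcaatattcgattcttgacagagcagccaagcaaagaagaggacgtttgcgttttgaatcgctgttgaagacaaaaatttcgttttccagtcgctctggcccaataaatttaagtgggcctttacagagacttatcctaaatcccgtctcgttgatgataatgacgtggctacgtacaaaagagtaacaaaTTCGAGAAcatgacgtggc
HSP101 upstream: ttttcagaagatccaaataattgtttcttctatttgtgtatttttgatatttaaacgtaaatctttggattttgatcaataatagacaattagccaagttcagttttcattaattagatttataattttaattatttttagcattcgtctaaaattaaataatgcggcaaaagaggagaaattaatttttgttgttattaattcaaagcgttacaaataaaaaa
Both genes have 1 core soon after the annotated gene start, at base 58 in *HSA32* (chr4:11340410-11340437) and at base 30 in *HSP101* (chr1:27940322-27940349). These stretches are labelled leader below, but whether they lie ahead of the coding sequence was not checked.
HSA32 leader: ttaaaagttTTCGAGAAatgttcgattc
HSP101 leader: aaaataagcGAAAATTCcacgtgacatc
Cores are common. A core was found in 16.1% of 27443 protein-coding genes in the 250 bases before the start, in 14.5% in 224 bases, and in 26.4% in the window from 250 bases before to 150 bases after the start. Heat shock elements also occur in looser forms that this search does not find, so a stretch without a core is not a stretch without an element. A match describes these letters and was not tested as a binding site.

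Both transcripts were at a low level without HS. *HSP101* had 19.5, 14.6 and 14.4 CPM in *hsfa2 hsfa3*, 19.0, 19.9 and 14.4 CPM in *hsfa2* and 16.1, 15.4 and 14.4 CPM in *hsfa3*, against 17.3, 14.0 and 14.6 CPM in Col. *HSA32* had 4.33, 3.32 and 2.81 CPM in *hsfa2 hsfa3*, 3.87, 3.86 and 2.93 CPM in *hsfa2* and 4.07, 3.01 and 4.04 CPM in *hsfa3*, against 4.72, 3.28 and 4.07 CPM in Col. The genotypes overlapped for both genes. No mutant was called different from Col for either member, with log2 fold changes of 0.08 (*hsfa2 hsfa3*), 0.21 (*hsfa2*) and 0.00 (*hsfa3*) for *HSP101* and −0.20, −0.18 and −0.12 in the same order for *HSA32*. Over all genes, 0.0521% differed from Col in *hsfa2 hsfa3*, 0.0426% in *hsfa2* and 0.0284% in *hsfa3*, in either direction.

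**Figure D1:**
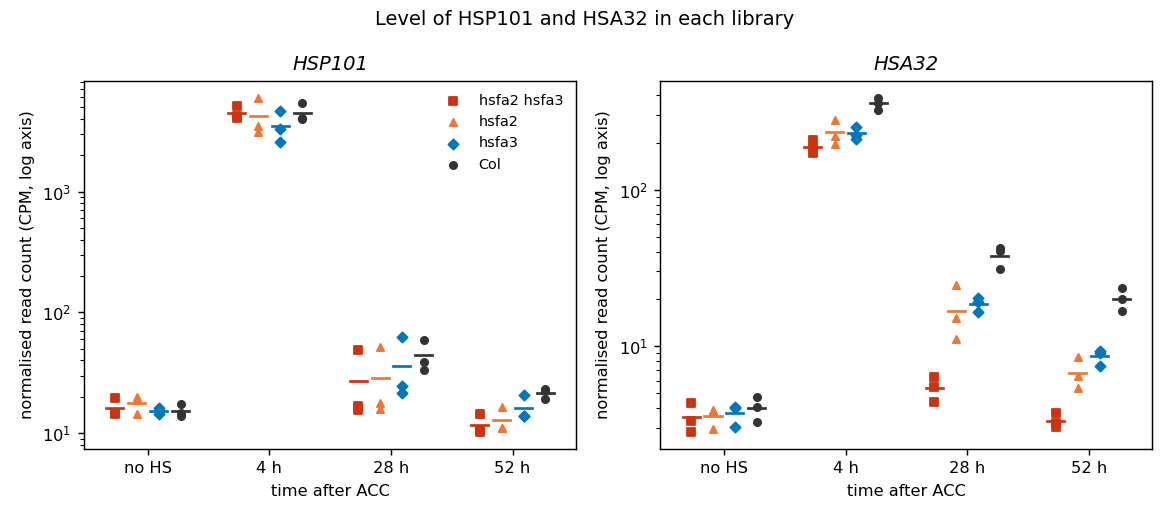
CPM (log axis) of *HSP101* and *HSA32* without HS and at 4, 28 and 52 h after ACC in each genotype; points are libraries and horizontal bars are means of 3. Mean *HSP101* lay between 3499 and 4507 CPM at 4 h and between 11.7 and 21.5 CPM at 52 h, while *HSA32* at 28 h averaged 5.41 CPM in *hsfa2 hsfa3* and 37.8 CPM in Col.

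At 4 h after ACC *HSP101* rose strongly in all genotypes. It reached 5082, 4028 and 4232 CPM in *hsfa2 hsfa3*, 5970, 3491 and 3120 CPM in *hsfa2* and 4641, 2592 and 3263 CPM in *hsfa3*, against 5440, 4080 and 4001 CPM in Col. Every heat-treated library lay above every untreated one, and the mutants overlapped with Col. Relative to no HS the fold change was 275 in *hsfa2 hsfa3*, 236 in *hsfa2*, 228 in *hsfa3* and 294 in Col (log2 8.10, 7.88, 7.83 and 8.20, the last with a standard error of 0.51 and an adjusted p of 1.55e-16 in edgeR's quasi-likelihood test). A gene was called induced at an adjusted p below 0.05 and a log2 fold change above 1, which 15.2% of genes met in *hsfa2 hsfa3* at 4 h, 15.4% in *hsfa2*, 14.8% in *hsfa3* and 16.9% in Col. In Col 33 of the 21107 genes tested were induced more than *HSP101*.

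*HSA32* rose at 4 h too. It had 206.8, 185.0 and 170.6 CPM in *hsfa2 hsfa3*, 279.1, 219.9 and 196.4 CPM in *hsfa2* and 251.7, 225.0 and 211.5 CPM in *hsfa3*, against 386.7, 324.3 and 357.9 CPM in Col. All 9 mutant libraries were below the lowest Col library, every *hsfa2 hsfa3* library was below every *hsfa3* library, and *hsfa2* overlapped with both. How many of all genes separate in this way was not computed, here or for any separation of libraries described below. The fold change over no HS was 53.7 in *hsfa2 hsfa3*, 65.2 in *hsfa2*, 61.9 in *hsfa3* and 88.5 in Col (log2 5.75, 6.03, 5.95 and 6.47, all called, with an adjusted p of 1.91e-22 in Col and a standard error of 0.25). In Col 108 genes were induced more than *HSA32*. As these are bulk seedlings, a lower level in fewer cells and a lower level in every cell cannot be told apart.

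By 28 h *HSP101* had fallen back to at most 2.87 times its mean level without HS. It had 48.4, 15.7 and 16.7 CPM in *hsfa2 hsfa3*, 51.9, 17.8 and 15.7 CPM in *hsfa2* and 62.1, 21.7 and 24.7 CPM in *hsfa3*, against 59.5, 33.4 and 39.1 CPM in Col. In each genotype replicate 1 was the highest library. The other 2 libraries of every mutant were below all Col libraries, so that the overlap of the mutants with Col came from replicate 1. *HSP101* was not called induced at 28 h in *hsfa2 hsfa3* (log2 fold change 0.74, 95% interval −0.05 to 1.52, adjusted p = 0.172) or *hsfa2* (0.68, −0.10 to 1.47, adjusted p = 0.227), but was called in *hsfa3* (1.24, 0.45 to 2.03, adjusted p = 0.0196) and in Col (1.52, 0.73 to 2.31, adjusted p = 0.00234). The call in *hsfa3* was lost without replicate 1 (log2 0.63) and without replicate 3 (adjusted p = 0.114). The share of all genes called induced at 28 h was 2.27% in *hsfa2 hsfa3*, 2.14% in *hsfa2*, 2.53% in *hsfa3* and 4.72% in Col.

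*HSA32* at 28 h was above its untreated libraries in every library of each genotype. It had 6.32, 4.41 and 5.49 CPM in *hsfa2 hsfa3*, 24.4, 11.0 and 15.1 CPM in *hsfa2* and 19.2, 16.5 and 20.2 CPM in *hsfa3*, against 40.2, 42.1 and 31.0 CPM in Col. The libraries formed 3 levels that did not overlap, with *hsfa2 hsfa3* lowest, both single mutants between and Col highest. The share of all genes with such an order was not computed. The induction over no HS in *hsfa2 hsfa3* was 1.55-fold (log2 0.63, adjusted p = 0.0398), which is below the fold required for a call. It was 4.74-fold in *hsfa2* (2.25, adjusted p = 5.92e-09), 5.02-fold in *hsfa3* (2.33, adjusted p = 2.01e-09) and 9.39-fold in Col (3.23, standard error 0.22, adjusted p = 4.22e-13). In Col 116 genes were induced more than *HSA32* at 28 h and 534 more than *HSP101*.

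At 52 h *HSP101* was not called induced in any genotype. It had 14.5, 10.5 and 10.2 CPM in *hsfa2 hsfa3*, 16.5, 11.0 and 11.0 CPM in *hsfa2* and 20.9, 13.8 and 13.9 CPM in *hsfa3*, against 23.0, 22.3 and 19.3 CPM in Col. All libraries of *hsfa2 hsfa3* and *hsfa2* were below Col, *hsfa3* overlapped with it, and the Col libraries were all above their untreated ones. The log2 fold change over no HS was −0.46 in *hsfa2 hsfa3* (adjusted p = 0.473), −0.47 in *hsfa2* (0.489), 0.08 in *hsfa3* (0.921) and 0.49 in Col (95% interval −0.29 to 1.28, adjusted p = 0.408). By the criterion of induction at all 3 recovery times, *HSA32* alone of the pair was a memory gene in Col.

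*HSA32* at 52 h had 3.72, 3.03 and 3.23 CPM in *hsfa2 hsfa3*, 8.46, 5.37 and 6.41 CPM in *hsfa2* and 9.33, 8.95 and 7.43 CPM in *hsfa3*, against 23.3, 19.9 and 16.7 CPM in Col. Col stood above all mutants, both single mutants above the double mutant, and the double mutant overlapped with its own untreated libraries. In *hsfa2 hsfa3* the level was 0.953 times that without HS (adjusted p = 0.879), and in *hsfa2* it was 1.90-fold (log2 0.93, adjusted p = 0.00494), just under the required fold but called without replicate 2 (1.13). Induction was called in *hsfa3* (2.31-fold, 1.21, adjusted p = 0.000379) and in Col (4.96-fold, 2.31, adjusted p = 2.59e-09). At this time 1.65% of all genes were called induced in *hsfa2 hsfa3*, 1.79% in *hsfa2*, 1.75% in *hsfa3* and 2.16% in Col, where 160 genes were induced more than *HSA32* and 2220 more than *HSP101*.

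The fall after 4 h was described as the share of the 4 h level that was left. Of its mean level at 4 h, *HSP101* kept 0.606% at 28 h in *hsfa2 hsfa3*, 0.680% in *hsfa2*, 1.03% in *hsfa3* and 0.976% in Col. *HSA32* kept 2.88% in *hsfa2 hsfa3*, 7.27% in *hsfa2*, 8.11% in *hsfa3* and 10.6% in Col. At 52 h what was left of *HSP101* was 0.264%, 0.306%, 0.463% and 0.478% in the same order of genotypes, and of *HSA32* 1.77%, 2.91%, 3.74% and 5.60%. These shares include the untreated level and so depend on the height of the rise at 4 h: in *hsfa2 hsfa3* at 52 h *HSP101* was at 0.726 times and *HSA32* at 0.953 times its mean without HS, and both overlapped with the untreated libraries. From 4 h to 28 h the fall was called for both members in all genotypes, with log2 changes of −7.37, −7.20, −6.59 and −6.68 for *HSP101* and −5.11, −3.78, −3.62 and −3.24 for *HSA32*, again from *hsfa2 hsfa3* to Col. A fall at this step was called for 32.5% of genes in *hsfa2 hsfa3*, 33.5% in *hsfa2*, 32.9% in *hsfa3* and 32.9% in Col.

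From 28 h to 52 h *HSA32* fell further in *hsfa2* (log2 −1.32, adjusted p = 0.000319), *hsfa3* (−1.12, adjusted p = 0.00151) and Col (−0.92, adjusted p = 0.00131). Without replicate 3 the fall was not called in *hsfa2* (adjusted p = 0.0899) or *hsfa3* (adjusted p = 0.196). In *hsfa2 hsfa3*, where little was left, the change was −0.70 (adjusted p = 0.0801), which DESeq2 called (adjusted p = 0.0447). For *HSP101* the log2 changes were −1.20, −1.15, −1.16 and −1.03 in *hsfa2 hsfa3*, *hsfa2*, *hsfa3* and Col, none of them called (adjusted p between 0.0638 and 0.103). All 4 were called without replicate 1, with log2 changes of −0.65, −0.60, −0.73 and −0.81. All 4 were also called in a model with the replicate number as an added term (−1.09, −1.04, −1.07 and −0.98). A fall at this step was called for 1.16% of genes in *hsfa2 hsfa3*, 1.38% in *hsfa2*, 1.86% in *hsfa3* and 9.26% in Col.

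To ask whether the mutants lose induction of the pair, the induction in a mutant was set against that in Col in the same model. For *HSA32* the difference in *hsfa2 hsfa3* was −0.72 on the log2 scale at 4 h (95% interval −1.32 to −0.12, adjusted p = 0.244), −2.60 at 28 h (−3.22 to −1.97, adjusted p = 3.62e-06) and −2.38 at 52 h (−3.01 to −1.74, adjusted p = 3.63e-05). The differences at 28 h and 52 h were called, and kept their call without each replicate number in turn. Of all genes, 3.92% were called lower in this comparison at 4 h, 0.971% at 28 h and 0.114% at 52 h, and 64 genes at 28 h and 69 at 52 h had a lower difference than *HSA32*. Green tissue markers, root markers and seed and embryo markers were not called in the same comparison at 28 h (0 of 5, 0 of 7 and 0 of 10 tested). With 0.971% of all genes called lower, such counts say little for lists of this size. The median log2 differences of the lists were 0.38, −0.03 and 1.62 in the same order. Summed CPM of the green tissue markers at 28 h was 30541 to 38096 in *hsfa2 hsfa3*, against 27186 to 31702 in Col, and that of the root markers 71.3 to 81.2, against 52.0 to 90.3 in Col. For the seed and embryo markers the sum was 4.21 to 14.6 in *hsfa2 hsfa3*, against 6.52 to 10.67 in Col.

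In the single mutants the difference for *HSA32* was negative at each time and was called at none in the model with group coefficients alone. It was −0.44, −0.98 and −1.38 in *hsfa2* at 4, 28 and 52 h (adjusted p = 0.852, 0.144 and 0.136) and −0.52, −0.90 and −1.10 in *hsfa3* (adjusted p = 1.00, 0.422 and 1.00). The 95% intervals excluded 0 at 28 h (−1.60 to −0.37 in *hsfa2*, −1.51 to −0.30 in *hsfa3*) and 52 h (−2.005 to −0.76 and −1.72 to −0.48), before adjustment over all genes. Few genes passed in these comparisons: 2.53% in *hsfa2* at 4 h, 0.147% at 28 h and 0.0142% at 52 h, and 0.441% in *hsfa3* at 4 h. In *hsfa3* 0% were called lower at 28 h and 0% at 52 h by edgeR, where 1045 and 226 genes had an unadjusted p below 0.05 and DESeq2 called 5 and 1. The value for *hsfa2* at 52 h was called by DESeq2 (log2 −1.39, adjusted p = 0.0140), and without replicate 1 edgeR called *hsfa2* at 28 h (−1.37, adjusted p = 0.0270) and 52 h (−1.503, adjusted p = 0.0361). In an edgeR model with the replicate number as an added term, *hsfa2* was called at 28 h (−1.03, adjusted p = 0.0129) and 52 h (−1.40, adjusted p = 0.00140).

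For *HSP101* no difference in induction was called in any mutant. It was −0.10, −0.78 and −0.95 in *hsfa2 hsfa3* at 4, 28 and 52 h, −0.32, −0.84 and −0.96 in *hsfa2*, and −0.37, −0.28 and −0.41 in *hsfa3*. The 95% intervals were wide, from −1.89 to 0.32 in *hsfa2 hsfa3* at 28 h and from −2.07 to 0.16 at 52 h, so a loss as large as that of a single mutant for *HSA32* lies within them. Without replicate 1, the difference at 28 h was called in *hsfa2 hsfa3* (−1.18, adjusted p = 0.00256) and in *hsfa2* (−1.37, adjusted p = 0.000948), and likewise at 52 h (−1.02, adjusted p = 0.0300, and −1.16, adjusted p = 0.0110), while *hsfa3* was still not called.

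**Figure D2:**
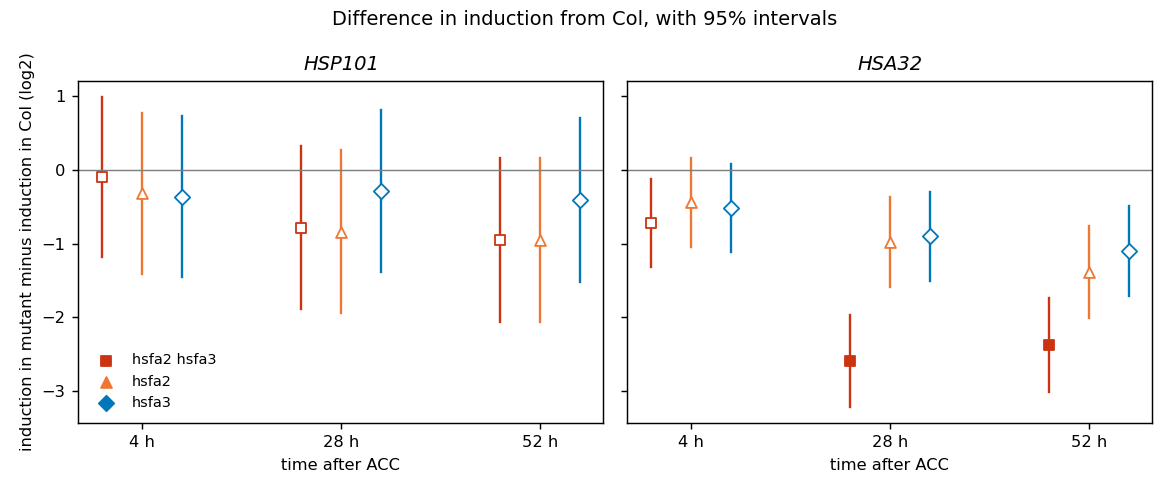
Induction in each mutant minus induction in Col (log2) for *HSP101* and *HSA32* at 4, 28 and 52 h after ACC; lines are 95% intervals and filled symbols have an adjusted p below 0.05. Filled symbols occur for *HSA32* in *hsfa2 hsfa3* at 28 h (−2.60) and 52 h (−2.38), and for *HSP101* all intervals include 0.

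Replicate 1 was high for both members. Its *HSP101* level was 1.64 to 3.09 times the mean of the other 2 libraries of the group at 28 h, against 1.23 to 1.81 times at 4 h, 1.11 to 1.51 times at 52 h and 1.08 to 1.34 times without HS, and it was the highest library in 4 of 4 genotypes at each recovery time and in 3 of 4 without HS. For *HSA32* replicate 1 was 1.04 to 1.87 times the mean of the others at 28 h, 1.13 to 1.34 times at 4 h, 1.14 to 1.44 times at 52 h and 1.14 to 1.41 times without HS. It was the highest *HSA32* library in 2 of 4 genotypes at 28 h and in 4 of 4 at the other times. The deviations of *HSP101* and *HSA32* from their group means had a Pearson r of 0.666 over the 48 libraries, where both values of a point come from the same RNA and depth. What raised both members in replicate 1 was not tested.

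**Figure D3:**
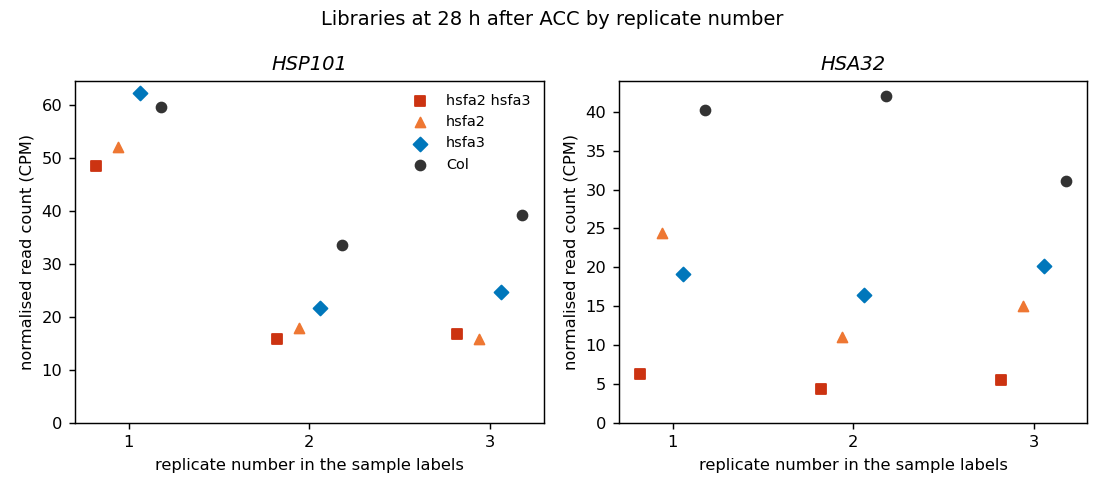
CPM of *HSP101* and *HSA32* in each library at 28 h after ACC, with the replicate number on the horizontal axis and the genotype as symbol and colour. For *HSP101* replicate 1 is the highest library in 4 of 4 genotypes, from 48.4 CPM in *hsfa2 hsfa3* to 62.1 CPM in *hsfa3*.

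The double mutant was then set against each single mutant. For *HSA32* its induction was lower than in *hsfa3* by a log2 difference of −0.21 at 4 h, −1.70 at 28 h (adjusted p = 0.0211, standard error 0.31) and −1.28 at 52 h (95% interval −1.92 to −0.64), of which the value at 28 h was called. Against *hsfa2* the differences were −0.28, −1.61 (standard error 0.31, adjusted p = 0.0774) and −0.996 (−1.64 to −0.35), and none was called. The call against *hsfa3* was lost without replicate 2 (log2 −1.57, adjusted p = 0.826) and without replicate 3 (−1.84, adjusted p = 1.00), and DESeq2 called the value against *hsfa2* at 28 h (adjusted p = 0.00208). *HSP101* was not called in any of these 6 comparisons, with log2 differences from −0.54 to 0.27. Against *hsfa3*, 0.768% of genes were called lower in *hsfa2 hsfa3* after 4 h, 0.0284% after 28 h and 0% after 52 h, and against *hsfa2* 0.0190%, 0% and 0%. Where edgeR called 0 genes, the unadjusted p was below 0.05 for 147 (*hsfa3*, 52 h), 210 (*hsfa2*, 28 h) and 85 genes (*hsfa2*, 52 h), and DESeq2 called 3, 7 and 0.

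Levels at the same time point, a comparison added after the data had been seen, do not carry the error of the no HS groups. By level *HSA32* in *hsfa2 hsfa3* was lower than in Col by a log2 fold change of −0.93 at 4 h (adjusted p = 0.000668), −2.80 at 28 h (1.16e-11) and −2.58 at 52 h (2.71e-10). In *hsfa2* it was lower by −0.62 (0.0451), −1.16 (0.000725) and −1.56 (1.63e-05), and in *hsfa3* by −1.02 at 28 h (0.00670) and −1.22 at 52 h (0.00211), with −0.63 at 4 h not called (0.0764). That value was called by DESeq2 (−0.64, adjusted p = 0.0430). The sum of *HSA32* and AT4G21323, which overlaps it, was called too (−0.86, adjusted p = 0.00119), but includes the change of AT4G21323 itself. All 3 calls for *hsfa2 hsfa3* held without each replicate number except that at 4 h without replicate 3 (adjusted p = 0.105). Of the 5 calls for the single mutants, that for *hsfa2* at 52 h held throughout, and each of the others was lost without replicate 2 and without replicate 3 (adjusted p between 0.0663 and 0.809). *HSP101* was not called in any mutant at any time, with log2 fold changes from −0.88 to −0.02, but without replicate 1 it was called at 28 h in *hsfa2 hsfa3* (−1.16), *hsfa2* (−1.11) and *hsfa3* (−0.65) and at 52 h in *hsfa2 hsfa3* (−1.001) and *hsfa2* (−0.90). By means, Col had 1.90, 6.99 and 6.002 times as much *HSA32* as *hsfa2 hsfa3* at 4, 28 and 52 h, 1.54, 2.24 and 2.96 times as much as *hsfa2*, and 1.55, 2.03 and 2.33 times as much as *hsfa3*. Of 27 mutant libraries after ACC, 27 were below every Col library of their time for *HSA32* and 18 for *HSP101*. All mutant libraries of a time are set against the same 3 Col libraries, so these are not separate agreements. The share over all genes was not computed. The share of all genes called lower by level was 6.88% at 4 h, 6.35% at 28 h and 0.531% at 52 h in *hsfa2 hsfa3*, 5.05%, 2.29% and 0.152% in *hsfa2*, and 2.04%, 1.45% and 0.0474% in *hsfa3*.

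The ratio of *HSA32* to *HSP101* within a library does not depend on library size, and was compared by exact permutation tests that are two-sided. As log2 of CPM with 0.1 added, the ratio in *hsfa2 hsfa3* was −2.19 ± 0.11 without HS, −4.57 ± 0.10 at 4 h, −2.11 ± 0.71 at 28 h and −1.77 ± 0.15 at 52 h (SD, n = 3 each). In Col it was −1.91 ± 0.13, −3.65 ± 0.17, −0.19 ± 0.46 and −0.12 ± 0.12. Thus the ratio was lowest at 4 h, when *HSP101* rose more. At 28 h its mean in the double mutant differed from the untreated mean by less than its SD. The libraries there were at −2.918 (replicate 1), −1.812 and −1.585, against −2.142, −2.106 and −2.315 without HS. At 52 h all libraries of the double mutant (−1.934, −1.754 and −1.634) were above its untreated ones. In Col all libraries of both times were above the untreated ones. Over the 4 genotypes the ratio was lower at 4 h than without HS by a mean log2 difference of −1.96 (exact permutation p = 1.25e-05, the smallest possible, adjusted p = 3.75e-05 over 6 ratio tests), and higher at 28 h than at 4 h by 3.14 or 8.79-fold (same p). Between 52 h and 28 h the mean difference was 0.00 (exact permutation p = 0.996), with 2 of 4 genotypes in each direction, and without replicate 1 it was −0.28 (exact permutation, adjusted p = 0.0478).

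Set against Col over the 3 recovery times, the ratio was lower in *hsfa2 hsfa3* by −1.495 (exact permutation p = 0.00025, the smallest possible, adjusted p = 0.0005), in *hsfa2* by −0.57 (p = 0.0025, adjusted p = 0.00375) and in *hsfa3* by −0.54 (p = 0.00875, adjusted p = 0.0105), with the same sign at 3 of 3 times in each mutant. A part of these differences was there without HS, which the tests did not use: the ratio was then −2.19 ± 0.11 in *hsfa2 hsfa3*, −2.29 ± 0.041 in *hsfa2* and −2.03 ± 0.26 in *hsfa3*, against −1.91 ± 0.13 in Col (SD, n = 3 each). The untreated libraries of *hsfa2 hsfa3* and *hsfa2* were all below those of Col, by −0.276 and −0.374 in the mean, and those of *hsfa3* overlapped with Col (−0.119). Whether the ratio changed more than this offset was not tested. In *hsfa2 hsfa3* the difference held without each replicate number, while in *hsfa2* (without replicate 2) and *hsfa3* (without replicate 2 or 3) the adjusted p was then between 0.0556 and 0.0667.

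**Figure D4:**
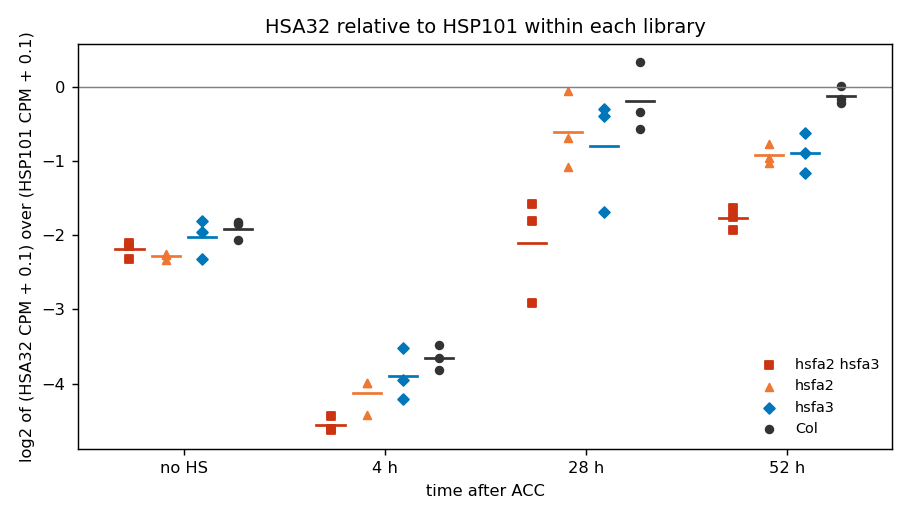
Log2 ratio of *HSA32* to *HSP101* (CPM with 0.1 added) per library, by genotype and time; horizontal bars are means of 3 libraries. The means at 28 h and 52 h were −2.11 and −1.77 in *hsfa2 hsfa3* and −0.19 and −0.12 in Col.

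Counts per kilobase of exon allow the 2 genes to be ordered by level, with 3362 bases of exon in *HSP101* and 1334 in *HSA32*. Without HS and at 4 h *HSP101* was above *HSA32* in every library, at 1341 CPM per kb in Col at 4 h against 267 CPM per kb for *HSA32*. In *hsfa2 hsfa3* *HSA32* stayed below *HSP101* in all libraries at 28 h and 52 h as well, at 4.05 and 2.49 CPM per kb against 8.01 and 3.49 CPM per kb for *HSP101*. The order was turned in *hsfa2* in 3 of 3 libraries at both times, in *hsfa3* in 2 of 3 at 28 h and 3 of 3 at 52 h, and in Col in 3 of 3 at both times, with 28.3 and 15.0 CPM per kb for *HSA32* and 13.1 and 6.41 CPM per kb for *HSP101* in Col.

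Both genes overlap a neighbour in the annotation, and the sources used here do not say which strand column of the counting was deposited. The last 113 bases of *HSA32* (chr4:11340362-11342075, plus strand) overlap AT4G21323, a gene of the subtilase family on the same strand. AT4G21323 was also lower in the mutants at 4 h, with 11.9, 9.86 and 7.67 CPM in *hsfa2 hsfa3*, 49.8, 32.5 and 52.8 CPM in *hsfa2* and 19.3, 23.7 and 21.2 CPM in *hsfa3*, against 107.7, 75.3 and 111.8 CPM in Col. Its difference in induction was −3.71 (adjusted p = 5.88e-09), −2.41 (0.000777) and −2.77 (0.00125) in *hsfa2 hsfa3* at 4, 28 and 52 h, and at 4 h it was also called in *hsfa2* (−1.35, adjusted p = 0.0463) and *hsfa3* (−2.59, adjusted p = 0.000125). At 4 h Col thus had 10.02 times as much AT4G21323 as *hsfa2 hsfa3*, but 1.90 times as much *HSA32*. With the counts of both genes added, the difference in induction of the sum in *hsfa2 hsfa3* was called at 4 h (−1.11, adjusted p = 0.00334). The sum includes the larger change of AT4G21323, so this is not a call for *HSA32* alone. *HSP101* (chr1:27936508-27940369, minus strand) overlaps AT1G74300, a gene of the alpha/beta-hydrolase family on the other strand, by 101 bases. AT1G74300, named after its values were seen, stayed at 1.65 to 4.77 CPM over all libraries and at 1.65 to 3.24 CPM at 4 h, when the lowest library had 2592 CPM of *HSP101*.

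Among the 9 Hsp100/Clp ATPases, all tested, *HSP101* was one of 4 induced in *hsfa2 hsfa3* at 4 h, with the plastid and mitochondrial ClpB proteins *CLPB3* (log2 4.14) and *CLPB4* (3.04) and the plastid regulatory subunit *ERD1* (1.296). The same number was induced in Col at 4 h, with *CLPB3* at 4.57, *CLPB4* at 3.94 and *ERD1* at 1.35. At 28 h 0 were induced in *hsfa2 hsfa3* and 2 in Col, *HSP101* and *CLPB3* (1.39). Of all genes, 15.2% were called induced in *hsfa2 hsfa3* and 16.9% in Col at 4 h, and 2.27% and 4.72% at 28 h. *CLPB3* had 103.7, 117.9 and 105.5 CPM in *hsfa2 hsfa3* at 28 h, against 498.6, 237.4 and 188.3 CPM in Col. These did not overlap, and replicate 1 was the highest Col library here too. The difference in induction at 28 h in *hsfa2 hsfa3* was called for *CLPB3* (−1.55, standard error 0.35, adjusted p = 0.0218) and *CLPB4* (−1.04, standard error 0.27, adjusted p = 0.0459), and the median over the 9 was −0.25. The others were at −0.40 (*CLPC1*), −0.25 (*HSP93-III*), 0.49 (*ERD1*), −0.04 (*CLPX*), −0.07 (AT5G49840) and −0.13 (AT1G33360), none called. Of all genes, 0.971% were called lower in this comparison. The median over all genes tested was within 0.07 of 0 in each comparison used here.

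The partners of HSP101 in protein disaggregation, 10 genes of cytosolic HSP70, HSP110 and J-domain proteins, were mostly induced at 4 h alone. In *hsfa2 hsfa3* the number called induced at the successive times was 9, 1 and 0, against 9, 2 and 1 in Col. Others were below their untreated level by the adjusted p alone, 6 of 10 at 28 h and 5 of 10 at 52 h in *hsfa2 hsfa3* (medians of the 10 −0.76 and −0.55) and 5 and 6 of 10 in Col (−0.32 and −0.49). By the same criterion 10.1% and 5.42% of all genes were lower in *hsfa2 hsfa3* at 28 h and 52 h, and 16.8% and 7.08% in Col. The share of all genes called induced was 15.2%, 2.27% and 1.65% in *hsfa2 hsfa3* at 4, 28 and 52 h. In Col it was 16.9%, 4.72% and 2.16%, and these shares stand beside the counts of each list here. At 28 h 1 of 10 was called lower in *hsfa2 hsfa3* in the difference in induction, with a median of −0.31, and the named members were *Hsp70b* (−2.09, adjusted p = 0.261), *HSP70* (−0.96, adjusted p = 0.458) and *Hsp70-2* (0.26). In this comparison, which is used for each list here, 0.971% of all genes were called lower. Cytosolic small HSPs, which hold unfolded proteins for the disaggregase, stayed induced for longer, with 8, 8 and 3 of 8 called in *hsfa2 hsfa3* at 4, 28 and 52 h, against 8, 8 and 7 in Col. The median difference of these 8 at 28 h was −1.65 with 2 called lower, from −4.50 for *HSP18.2* (adjusted p = 8.64e-05) and −2.51 for *HSP17.4* (not called, adjusted p = 0.436) to −0.02 for AT1G07400. Of 18 tested HS memory genes and factors, 14, 2 and 0 were induced in *hsfa2 hsfa3* at 4, 28 and 52 h, against 15, 7 and 7 in Col, while 1, 3 and 2 were below their untreated level in *hsfa2 hsfa3* and 1, 0 and 0 in Col. At 4 h that criterion was met by 35.3% of all genes in *hsfa2 hsfa3* and 36.1% in Col. Their median difference at 28 h was −0.74 with 5 called lower, among them *APX2* (−7.19, adjusted p = 0.0148), an ascorbate peroxidase. The plastid small HSP *HSP21* (−8.31, adjusted p = 0.0600) was not called, nor was *NBR1*, an autophagy receptor (0.17).

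The genes whose pattern was most like each member were found by Pearson r over the 16 group means of log2 CPM, as a description. For *HSP101* they were AT1G54050, of the HSP20-like chaperone family (r = 0.9988), *UGT89B1*, a glycosyltransferase (0.9987), *ATERDJ3A*, a J-domain protein (0.9981), *EMB2770*, a pre-mRNA splicing factor (0.9979), and AT3G24860, of the homeodomain-like family (0.9975). As geometric means, taken from the group means of log2 CPM, AT1G54050 had 14.8 CPM in *hsfa2 hsfa3* at 28 h, against 23.3 CPM in Col. At 4 h it had 1738 CPM, against 1745 CPM in Col. For *HSA32* they were AT5G25450, annotated as a cytochrome bd ubiquinol oxidase subunit (0.9937), AT1G72660, a P-loop NTPase (0.9936), AT1G44414, a zinc-ribbon protein (0.9930), AT1G52560, an HSP20-like chaperone (0.9928), and the Hsp70-type *HSP70T-2* (0.9914). By geometric mean AT1G72660 had 1.09 CPM in *hsfa2 hsfa3* at 28 h, against 20.7 CPM in Col, and *HSP70T-2* had 8.14 CPM, against 43.4 CPM in Col. *HSP101* and *HSA32* had an r of 0.9435 with each other, which among the 21107 genes tested placed *HSA32* at rank 3381 in the list of *HSP101* and *HSP101* at rank 790 in that of *HSA32*.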

How the data were processed

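Seedling RNA was sequenced as paired-end reads. The authors mapped them to TAIR10 with STAR 2.5.1a, and the deposited files hold raw read pair counts per gene from its gene counting, 1 file per library, with no normalization. Which strand column was kept is not given in the sources used here. Reads where genes on opposite strands overlap, as *HSP101* and AT1G74300 do, therefore cannot be assigned with certainty. *HSA32* and AT4G21323 lie on the same strand, so the choice of strand column does not separate them. Between 7.20% and 9.38% of the counted pairs stood under entries that name no gene and were left out.

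Locus identifiers were matched to the RefSeq gene table of TAIR10.1 (32835 of 33323), and protein-coding genes were kept. In R 4.3.3, edgeR 4.0.16 was run on the counts with TMM normalization and filterByExpr over the 16 groups, which left 21107 genes. The 48 libraries entered 1 quasi-likelihood model with each group as a coefficient (32 residual degrees of freedom). Adjusted p-values are Benjamini-Hochberg values over all genes tested within a comparison, and come from edgeR unless another tool is named. Called means an adjusted p below 0.05, and for induction also a log2 fold change above 1. The standard error is the absolute log2 fold change over the square root of F, and 95% intervals use the t distribution on the same residual degrees of freedom. CPM use TMM library sizes, and 3 counts correspond to 0.0834 to 0.115 CPM. Group means carry 3 libraries, which limits their precision. Ratios were tested by exact permutation within genotypes or times, with 0.1 CPM added. Exon lengths, gene positions and sequences are from the RefSeq annotation of TAIR10.1 (Python 3.11.15, numpy 2.4.6, pandas 2.3.3, matplotlib 3.10.9), and the counts themselves hold no coordinates.

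Genes named beside the pair are AT4G21323, the mutated genes, the 5 genes with the highest r to each member, all Hsp100/Clp ATPases, and of each other chaperone or memory list the 2 members with the lowest and the 1 with the highest difference in induction in *hsfa2 hsfa3* at 28 h. The members and lists were chosen with earlier results of these data known. Libraries of a group were checked for duplicates: over 48 pairs the chi-square per degree of freedom was 11.92 to 82.67, so none agree within sampling noise.

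Alternatives were DESeq2 1.42.0, edgeR with the size factors of DESeq2, omission of the filter, a filter of 50 counts in 3 libraries, all genes in the files, each genotype fitted on its own, a replicate block, each replicate number left out, 1 CPM added in the ratio, and the counts of AT4G21323 added to those of *HSA32*. Levels of mutants and Col at equal times were compared after the data had been seen. The scripts were tested on simulated data with known changes. limma 3.58.1 is used by edgeR. No per-sample columns of other series were present.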

Additional observations from a re-analysis of the deposited data

Results flagged for a closer look

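In 3 comparisons the loss of *HSA32* induction differed between genotypes in a test of the difference itself. The induction of *HSA32* at 28 h was lower in *hsfa2 hsfa3* than in Col by −2.60 on the log2 scale, and at 52 h by −2.38. At 28 h it was also lower in *hsfa2 hsfa3* than in *hsfa3*, by −1.70, a call that was lost without replicate 2 and without replicate 3. For *HSP101*, the corresponding differences were −0.78 and −0.95 against Col and −0.50 against *hsfa3*, none of them called with all libraries. Without replicate 1 edgeR called those against Col (−1.18, adjusted p = 0.00256, and −1.02, adjusted p = 0.0300). Groups of 3 libraries were too small to be searched for single outlying libraries.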

How the results depend on the processing

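Of the values for induction, difference in induction and the ratio, 433 kept their direction and side of the threshold under the alternatives. Another 14 passed the threshold only under an alternative, 5 lost it and 7 changed sign. The other values were falls between times, levels without HS or at the same time, and the double against each single mutant. For them these numbers were 465, 25, 14 and 6. The number of genes induced in Col at 4 h was 3565, and 3196 to 3825 under the alternatives.

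The replicate number was not taken as a pairing, since in only 45 of 120 pairs of groups were all same-numbered correlations of the deviations above 0.1. Their mean was 0.262, so same-numbered libraries did deviate alike on average. The mean of −0.130 for other numbers is no separate contrast, since deviations sum to 0 within a group. With the replicate block, the *HSA32* difference in induction was called in *hsfa2* at 28 h (−1.03, adjusted p = 0.0129) and 52 h (−1.40, adjusted p = 0.00140) and in *hsfa2 hsfa3* at 4 h (−0.72, adjusted p = 0.0397), and 12 calls were gained in all, among them the fall of *HSP101* between 28 h and 52 h in *hsfa2 hsfa3* (−1.09), *hsfa2* (−1.04), *hsfa3* (−1.07) and Col (−0.98), the fall of *HSA32* at that step in *hsfa2 hsfa3* (−0.70), and the *HSA32* induction of *hsfa2 hsfa3* against *hsfa2* at 28 h (−1.58) and *hsfa3* at 52 h (−1.27), the level of *HSP101* in *hsfa2 hsfa3* against Col at 28 h (−0.80, adjusted p = 0.0171) and that of *HSA32* in *hsfa3* at 4 h (−0.64, adjusted p = 0.00231). No call was lost with the block. For the sum of *HSA32* and AT4G21323, which includes the change of AT4G21323, the difference in induction was called in *hsfa2* at 52 h (−1.43, adjusted p = 0.0261) and *hsfa2 hsfa3* at 4 h (−1.11). DESeq2 gave a call for *HSA32* in *hsfa2* at 52 h (−1.39). With each genotype fitted on its own, *HSP101* fell between 28 h and 52 h in Col (−1.04, adjusted p = 0.00893).

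With a replicate number left out, the *HSP101* difference in induction ranged from −1.37 to −0.60 in *hsfa2* at 28 h, −1.16 to −0.71 in *hsfa2* at 52 h, −0.18 to 0.025 in *hsfa2 hsfa3* at 4 h, −1.18 to −0.65 at 28 h and −1.02 to −0.87 at 52 h. *HSP101* induction ranged from −0.037 to 1.02 in *hsfa2* at 28 h, 0.63 to 1.54 in *hsfa3* at 28 h and −0.097 to 0.20 in *hsfa3* at 52 h. For *HSA32*, the difference in *hsfa2* ranged from −1.37 to −0.47 at 28 h and −1.59 to −1.08 at 52 h, and induction at 52 h from 0.80 to 1.13 in *hsfa2* and −0.18 to 0.016 in *hsfa2 hsfa3*. The log2 ratio of *HSA32* to *HSP101* against Col ranged from −0.72 to −0.48 in *hsfa2* and −0.63 to −0.36 in *hsfa3*, and from −0.28 to 0.15 for 52 h against 28 h, where adding 1 CPM gave 0.041.

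Other sign changes were in values near 0. *HSP101* in *hsfa3* without HS was −0.0053 with no filter, −0.0070 with all genes and −0.064 to 0.053 with a replicate number left out. With a replicate number left out, its induction in *hsfa2 hsfa3* minus that in *hsfa2* was −0.082 to 0.18 at 28 h and −0.16 to 0.13 at 52 h, and its level in *hsfa2 hsfa3* at 4 h against Col −0.064 to 0.047. The cause of these changes was not tested.

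The standard error of the difference in *HSP101* induction at 28 h in *hsfa2 hsfa3* was 0.54 with all libraries and 0.19 without replicate 1.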
